A study of Homo sapiens with 6 samples.

Results

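The hairpin ETV1-sh2 was compared with a scrambled hairpin in 2 human melanoma cell lines, A375 and Colo800, which were used as paired replicates. The comparison takes 4 of the 6 libraries of the series, 1 for each line and hairpin. The libraries of the other ETV1 hairpin, ETV1-sh1, were left out of the main fit, and their levels are given only side by side. They entered only the alternative fits that took in all hairpins. Both lines are established lines with an activating BRAF mutation, grown in serum, and both were infected with viruses that carry a short hairpin RNA, a transcript that the cell processes into a small RNA that silences a matching messenger RNA. Per the design text RNA was harvested 4 days after an infection done in duplicate, and nothing in the labels says if both duplicates went into a column. Levels are FPKM, the fragments mapped to a gene per kilobase of its transcript and per library size, so absolute depth is unknown.

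The labels do not agree on what the cells received. Their treatment field lists 5 nM trametinib (which inhibits MEK) for the ETV1-sh2 libraries of both lines, and 1 uM vemurafenib (which inhibits BRAF) for their scrambled libraries (ETV1-sh1 is listed under DMSO). Their protocol field describes siRNA for 48 hours and a drug for 8 hours, while the design text names viruses and no drug. MEK and BRAF act in one pathway upstream of ERK. In these 4 libraries each listed drug goes with 1 hairpin, so hairpin and drug cannot be told apart, and every change given here is that of the ETV1-sh2 libraries against the scrambled ones. Whether the hairpin also acts on transcripts other than ETV1 was not tested.

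ETV1 belongs, with ETV4 and ETV5, to the PEA3 group of ETS transcription factors, which bind DNA sequences built around a GGAA core. ERK signalling stabilises these proteins and raises their activity, and in melanoma ETV1 is known as an oncogene linked to the melanocyte regulator MITF. ETS factors share much of their binding sequence, so that activators and repressors of the family can meet at the same promoters.

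The deposited data cover 17468 genes, and 11142 of these, with a mean of at least 1 FPKM over the 4 libraries, were tested. GPR89A (mean of 1) and MARCH4 (1.001) lay just inside that limit, and CCDC40 (0.9998) and MYOM2 (0.9985) just outside. FPKM sums ran from 589256 to 705196 and 10418 to 11013 genes reached 1 FPKM. The steps between low values put the depth of A375 ETV1-sh2 at 2.10 times that of A375 scrambled, and Colo800 scrambled and ETV1-sh2 at 0.802 and 0.769 times it; depth thus differed between the hairpins in A375, and its part in the A375 values was not tested. Mitochondrially encoded genes took 4.56% of the A375 scrambled sum and 5.03% of that with ETV1-sh2, and 6.15% and 9.21% in Colo800. Of 7 listed melanoma cell markers 5 reached the limit for testing. SOX10 (410 to 712 FPKM) and S100B (51.5 to 305) were high in all 4 libraries, while the pigment enzyme TYR was at or under 0.0271 FPKM in A375. MLANA lay below the limit, at 0.301 FPKM (scrambled) against 0.481 (ETV1-sh2) in A375 and 1.85 against 0.51 in Colo800. Markers of other cell types were mixed: 3 of 7 leukocyte, 7 of 9 fibroblast, 2 of 8 keratinocyte and 1 of 5 endothelial markers reached the limit for testing. HLA-DRA reached 1271 FPKM, CD68 306, FAP 47.3 and KRT10 11.6, while PTPRC reached at most 0.121, COL3A1 0.0842, KRT5 0.221 and CDH5 0.00878.

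The level of ETV1 itself was 82.8 FPKM for scrambled against 3.46 for ETV1-sh2 in A375, and 180.3 against 9.80 in Colo800. The ETV1-sh2 libraries thus held 4.18% and 5.43% of the scrambled level, and the groups did not overlap. With ETV1-sh1, the shallower hairpin, the levels were 34.6 FPKM (41.8% left) and 54.6 FPKM (30.3% left). On the log2(FPKM + 1) scale, which understates changes of low genes, ETV1 fell by 4.15 (SE 0.155, limma adjusted p = 0.0416), the largest fitted fall among genes that passed.

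Over all genes 482 fell (4.33% of those tested) and 316 rose (2.84%) at an adjusted p under 0.05, from limma on log2(FPKM + 1) with the line as a block. Each of these genes moved the same way in both lines, as a test against the spread between lines favours. The lower genes had a median change of -1.33 in A375 and -1.28 in Colo800, and the higher genes 1.28 and 1.23. Without any test, 394 genes were at least 2-fold lower in both lines (3.54%) and 272 at least 2-fold higher (2.44%), of which 341 and 222 are among the genes that passed. The median change of all genes tested was 0.05. At an unadjusted p under 0.05 in limma, 1865 of the 11142 genes were lower and 2018 higher, the background for such counts in lists. The adjusted p-values of the genes that passed lie close together, from 0.0416, shared by 256 genes, to 0.0498, so the size of change orders these genes and the adjusted p does not. With 4 libraries and 1 residual degree of freedom, the p-values reflect how these libraries vary among themselves, and an exact 2-sided permutation of 2 against 2 cannot go below 0.333. In limma no gene passed when low genes were kept in (smallest adjusted p = 0.125; 1747 lower and 2103 higher genes at an unadjusted p under 0.05), when the variance trend was dropped (0.0604; 1760 and 2012) or when the line was not a block (0.953; 295 and 249). A fit with all 3 hairpins gave 997 lower and 862 higher genes. In that fit 62 and 19 passed without A375 scrambled, 209 and 87 without Colo800 scrambled, 708 and 503 without A375 ETV1-sh2, and 1078 and 969 without Colo800 ETV1-sh2.

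**Figure D1:**
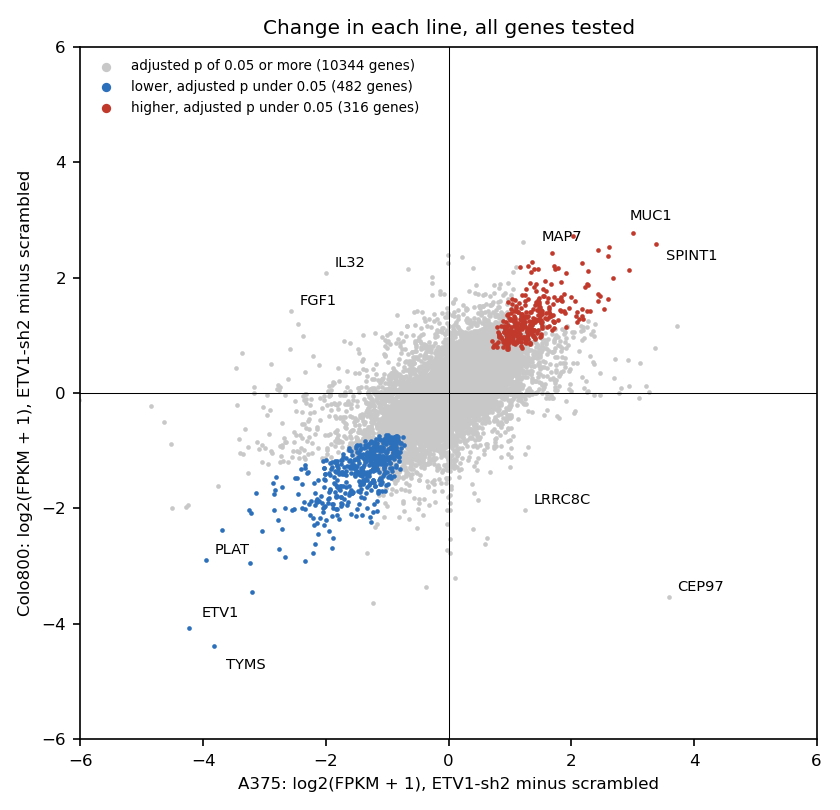
Change of each of the 11142 genes tested, ETV1-sh2 minus scrambled on log2(FPKM + 1), in A375 (x axis) and Colo800 (y axis). Each dot is a gene; the 482 genes that fell (blue) and the 316 that rose (red) lie along the diagonal, with ETV1 and TYMS lowest, and CEP97, IL32, FGF1 and LRRC8C lie in the corners where the lines moved apart.

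Next to ETV1 the largest falls were those of TYMS, PLAT, HDDC2, ANXA2 and ANLN. TYMS, thymidylate synthase, which makes the thymidine precursor of DNA, stood at 46.8 FPKM (scrambled) against 2.36 (ETV1-sh2) in A375 and 93.6 against 3.53 in Colo800 (27.9 and 44.8 with ETV1-sh1). Its change of -4.11 (SE 0.211) was about that of ETV1 itself. HDDC2, a nucleotide-hydrolysing HD domain protein, was at 26.5 and 1.999 FPKM in A375 and 33.4 and 2.16 in Colo800 (15.8 and 18.3 with ETV1-sh1; change -3.32). Both ETV1-sh2 libraries stood apart from all 4 others for these enzymes.

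ANXA2, annexin A2, a surface protein that gathers plasminogen and its activator, was at 385 FPKM against 40.2 in A375 and 851 against 109.9 in Colo800 (change -3.09, SE 0.148). Its ETV1-sh1 levels were 222 and 737. PLAT, the tissue plasminogen activator that annexin A2 binds, kept 6.05% of its scrambled level in A375 and 13.3% in Colo800 (change -3.43). LITAF, a protein of late endosome membranes, was at 37.4 against 6.59 and 88.5 against 10.8 (change -2.63), and GOLIM4, a Golgi membrane protein, was at 40.7 against 5.33 and 65.6 against 11.9 (-2.54).

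Among the 15 lower genes with the largest change, COX5A and UCN2 lay above scrambled with ETV1-sh1 in both lines. COX5A, a nuclear-encoded subunit of cytochrome c oxidase, had levels of 50.04 FPKM (scrambled), 7.004 (ETV1-sh2) and 71.5 (ETV1-sh1) in A375, and 64.4, 8.06 and 107.5 in Colo800 (change with ETV1-sh2 -2.76). UCN2, the peptide hormone urocortin 2, was at 55.3, 4.92 and 69.6 in A375 and at 95.8, 22.9 and 201 in Colo800 (-2.63). In both genes the ETV1-sh2 library was the lowest of its line and the ETV1-sh1 library the highest. Both ETV1 hairpins were set against the same scrambled libraries, so these values are given side by side only. USP46, a deubiquitinating enzyme, lay below scrambled in all ETV1 hairpin libraries, at 10.98, 1.58 and 9.62 in A375 and at 14.7, 1.30 and 8.00 in Colo800 (-2.49).

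Genes low or nearly silent in scrambled cells led the higher side. SPINT1, a membrane-bound inhibitor of serine proteases of the epithelial surface, was at 2.54 FPKM against 35.8 in A375 and 0.375 against 7.28 in Colo800 (3.06 and 1.91 with ETV1-sh1; change 2.98, SE 0.270). MUC1, a transmembrane mucin, was at 4.65 against 44.6 and 2.29 against 21.6 (17.0 and 2.11 with ETV1-sh1; change 2.90, SE 0.181). MAP7, a microtubule-associated protein of epithelia, was at 1.64 against 15.1 and 1.12 against 11.2 (1.52 and 2.08; 2.57). In each of these 3 genes both ETV1-sh2 libraries lay above every other library.

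DYNLRB1, a light chain of the dynein motor, started from high levels: 89.5 FPKM against 549 in A375 and 121 against 627 in Colo800 (change 2.48, SE 0.142). It was also high with ETV1-sh1, at 422 and 504, as was MED19, a Mediator subunit, at 8.83, 46.7 with ETV1-sh2 and 40.5 with ETV1-sh1 in A375, and 6.34, 31.0 and 27.4 in Colo800. PANX2, a channel protein of the pannexin family, was at 1.03 against 14.6 and 11.4 against 53.2 (change 2.53). Further genes with large rises were the kinase CDC42BPG (2.46), the lipase LIPH (2.34), the sorting nexin SNX15 (2.22), FNDC4 (2.08) and BEX2 (2.07). LIPH was at 1.15 FPKM in A375 scrambled and 0.682 in Colo800 scrambled. It reached the limit for testing only through the ETV1-sh2 libraries, so it had to differ to be tested.

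Also among the 15 higher genes with the largest change were 3 genes of ubiquitin and ubiquitin-like tagging, grouped here after their values were seen. The F-box proteins FBXO2 and FBXO6, which pick glycoproteins for ubiquitin ligases, changed by 2.38 and 2.12: FBXO2 was at 11.5 against 49.96 FPKM and 1.08 against 12.8, and FBXO6 at 3.34 against 25.4 and 3.23 against 12.1. UBA7, the enzyme that activates the ubiquitin-like ISG15, was at 2.85 against 19.8 in A375 and 10.2 against 35.6 in Colo800 (2.07). For all 3 the ETV1-sh2 level was the highest of its line.

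**Figure D2:**
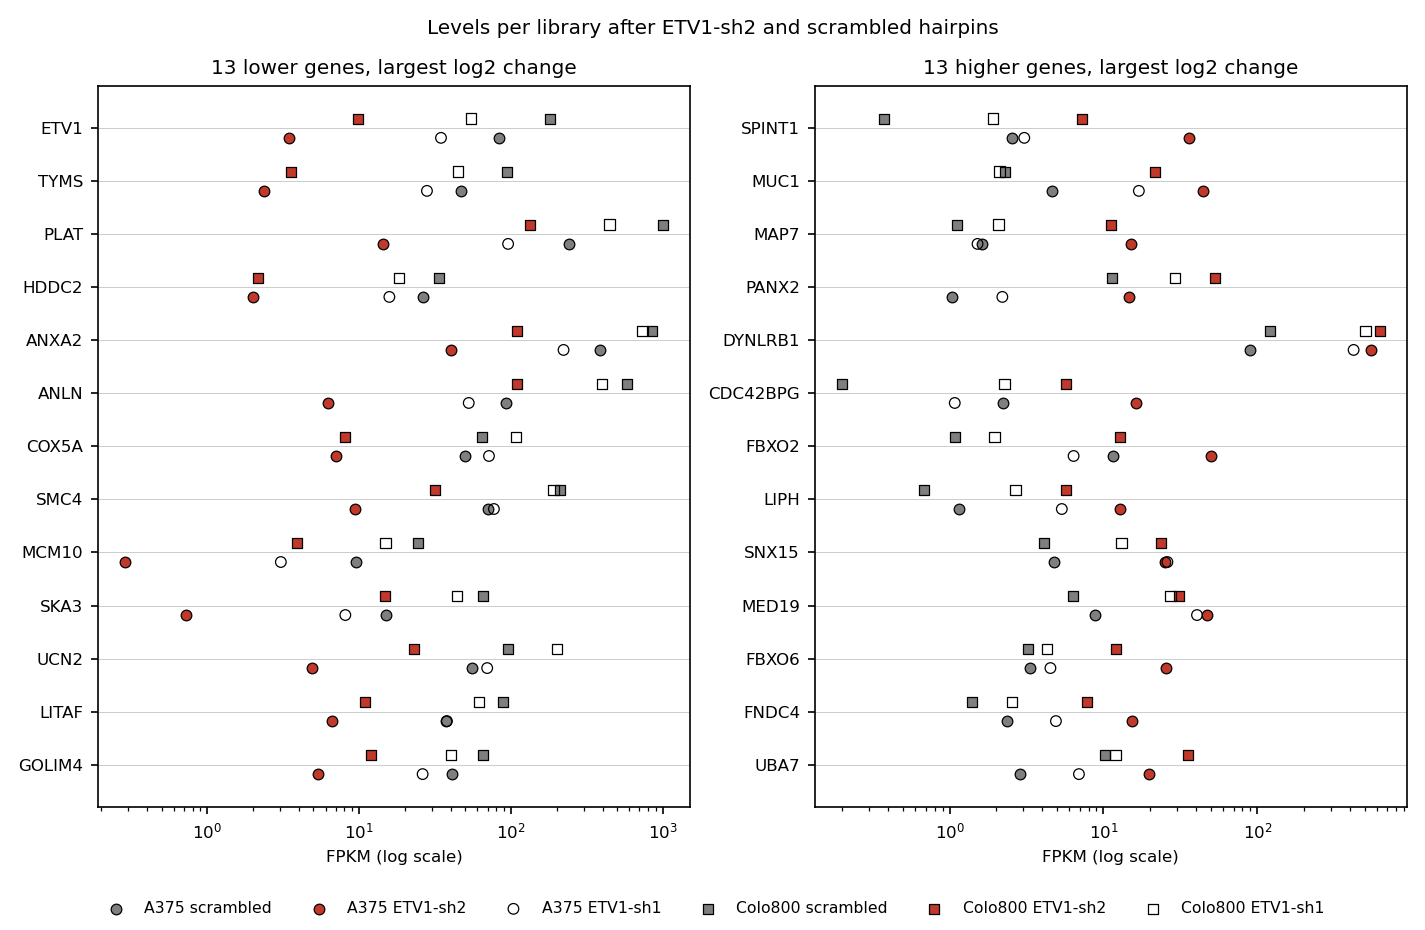
Level in FPKM (log scale) of the 13 lower and 13 higher genes with the largest change, in each library of A375 (circles) and Colo800 (squares): grey scrambled, red ETV1-sh2, white ETV1-sh1. Red points lie to the left of the grey point of the same line for the lower genes and to the right for the higher genes; the white points of COX5A and UCN2 lie to the right of grey in both lines, and those of DYNLRB1 near red.

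Within the ETS family ETV1 was not the only member to fall. Of the 16 tested factors 3 fell, the hairpin's target ETV1 among them, and none rose (median change -0.63), where 4.33% of all genes fell. The others that fell were repressors. ELK3, a repressor that ERK converts into an activator, was at 57.2 FPKM against 10.96 in A375 and 51.0 against 12.7 in Colo800 (change -2.10, SE 0.175), with 54.6 and 33.4 after ETV1-sh1. ETV6, a repressor, was at 15.95 against 4.56 and 27.0 against 10.3 (-1.46). The paralogs of ETV1 did not pass: ETV4 was at 84.7 against 40.8 in A375 and 63.2 against 64.5 in Colo800, and ETV5 at 70.3 against 55.7 and 186 against 93.4 (adjusted p = 0.285 and 0.111). The 9 other activators tested, among them ETS1, ELK1 and GABPA, had a median of 0.08 and none passed, but single members moved both ways. At an unadjusted p under 0.05 in limma, 3 of the 9 were lower and 2 higher, where 1865 and 2018 of all 11142 genes were. ETS1 was lower (change -0.89, adjusted p = 0.0575) and GABPA higher (0.69, adjusted p = 0.0968).

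Genes that follow ERK activity changed in part. Of 27 tested 6 fell and 1 rose, where 4.33% of all genes fell and 2.84% rose (median -0.48, -0.69 in A375 and -0.35 in Colo800). The transcription factor MYC was at 14.8 against 1.76 FPKM and 52.7 against 12.4 (change -2.26), and cyclin D1 (CCND1) at 411 against 76.8 and 346 against 139 (-1.86). HMGA2, a chromatin protein, was at 779 against 284 and 365 against 124. Feedback inhibitors split: the ERK phosphatase DUSP4 (-1.43) and the Sprouty proteins SPRY1 (-1.78) and SPRY4 (-1.48) fell, while DUSP6 was at 201 against 118 and 156 against 138 (adjusted p = 0.173), and SPRY2 at 109.6 against 88.5 and 80.6 against 96.7 (adjusted p = 0.943). EGR1, an immediate early factor, rose in A375 from 83.3 to 278 FPKM and in Colo800 from 83.0 to 265 (1.69, SE 0.133), with 52.1 and 149.5 after ETV1-sh1. The labels list a MEK inhibitor for one group and a BRAF inhibitor for the other, and the part of these drugs in the levels of ERK-dependent genes cannot be told apart from that of the hairpin.

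Among 47 tested genes of DNA replication 18 fell and 0 rose (median -1.01, -0.87 in A375 and -1.15 in Colo800), where 4.33% of all genes fell. The licensing factors, which load and fire replication origins, held 10 of the 18. MCM2 of the replicative helicase was at 42.4 against 8.02 FPKM and 72.7 against 16 (change -2.19), and MCM7 at 131 against 42.8 and 252 against 78.1 (-1.64). The loader CDC6 was at 20.1 against 5.09 and 62.8 against 13.1 (-1.99). MCM10, which joins helicase and polymerase, was at 9.54 against 0.286 and 24.4 against 3.87 (-2.71), and CDC45 fell by 1.83 on the log2 scale. ETV1-sh1 levels of MCM2 were 23.8 and 57.6, and of MCM7 89.1 and 284.

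At the fork itself 4 of 18 polymerase and clamp genes fell: the clamp PCNA (-1.10), the clamp loader RFC3, the primase PRIM1 and the flap nuclease FEN1 (-1.42). Of the 7 nucleotide supply genes TYMS alone passed. RRM2, the ribonucleotide reductase subunit that rises in S phase, was at 137 against 6.14 FPKM and 545 against 138 (change -3.13, adjusted p = 0.0529), and thymidine kinase TK1 at 12.6 against 1.09 and 55.0 against 23.7 (adjusted p = 0.0604). UHRF1, which guides maintenance of DNA methylation through replication, was at 11.9 against 0.868 and 12.2 against 1.89 (-2.49), and the checkpoint adaptor CLSPN and the histone chaperone CHAF1A also fell.

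Replication genes share a promoter sequence that E2F factors bind, and 3 windows are printed because these genes fell and carry it. The windows come from RefSeq promoters on GRCh38.p14, which run from 250 bases before to 50 after the annotated start, and each is 120 bases, 5′ to 3′ on the gene's strand, with at most 30 bases past the start and with the E2F letters in capitals. TYMS lies on the plus strand (chr18:657558-657677), MCM7 on the minus strand (chr7:100101521-100101640) and CDC6 on the plus strand (chr17:40287789-40287908).
TYMS: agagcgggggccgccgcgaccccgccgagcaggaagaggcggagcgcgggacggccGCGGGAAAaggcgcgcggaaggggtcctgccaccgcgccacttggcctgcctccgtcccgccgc
MCM7: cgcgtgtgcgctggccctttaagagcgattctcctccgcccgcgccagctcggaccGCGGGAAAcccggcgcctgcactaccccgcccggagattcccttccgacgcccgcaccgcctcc
CDC6: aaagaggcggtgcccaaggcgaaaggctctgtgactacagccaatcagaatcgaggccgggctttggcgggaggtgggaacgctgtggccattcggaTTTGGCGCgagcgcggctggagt
The letters searched, TTTGGCGC or TTTCCCGC on either strand, stood in 21 of 41 matched windows of the tested replication genes (51.2%), in 4.59% of the 9269 windows matched to tested genes, and in 2.27% of all 35116 windows. A match is a description of these letters and shows no binding.

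Among 68 tested mitosis genes 12 fell and none rose (median -1.29), where 4.33% of all genes fell. Of the 68, 67 were lower in both lines. The median was -1.93 in A375 and -0.82 in Colo800, a difference between lines that was not tested. SMC4, a condensin subunit that folds mitotic chromosomes, was at 70.1 FPKM against 9.41 in A375 and 211 against 31.7 in Colo800 (change -2.74, SE 0.144), with 77.1 and 190 after ETV1-sh1. ANLN, anillin of the cleavage furrow, was at 92.1 against 6.19 and 576 against 109.9 (-3.04), with 52.6 and 396 after ETV1-sh1. PLK4, the kinase that starts centriole copying, was at 4.80 against 0.521 and 16.1 against 4.30 (-1.81). SKA3, a kinetochore protein among the 15 lower genes with the largest change, was at 15.02 against 0.721 and 65.3 against 14.7.

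The other mitosis genes that fell were the kinesins KIF23 and KIF4A, the spindle proteins NUSAP1 and CKAP2L, RACGAP1 of the cytokinesis machinery, the kinetochore and chromatid proteins NDC80, INCENP and NCAPG, and the transcription factor E2F1 (-1.24). The remaining mitosis genes did not pass, though 58 of the 68 were lower at an unadjusted p under 0.05. MKI67, the common marker of cycling cells, was at 13.6 against 0.834 FPKM in A375 and 49.3 against 25.1 in Colo800 (adjusted p = 0.0834). CDK1, the kinase that drives mitosis, was at 26.6 against 3.47 and 97.7 against 42.4 (0.0580), and cyclin B1 (CCNB1) at 39.5 against 12.1 and 62.7 against 55.1 (0.175). None of the 10 cyclins and degradation factors passed, and 7 were lower at an unadjusted p under 0.05. In bulk RNA fewer cells in a cell cycle phase and less RNA per cell cannot be told apart.

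Late cell cycle promoters often carry the cell cycle homology region, TTTGAA, and 3 such windows are printed, in the same form and from the same source, because these genes fell and hold it. All lie on the plus strand: SMC4 at chr3:160399518-160399637, ANLN at chr7:36389772-36389891 and KIF23 at chr15:69414237-69414356. Capitals mark the letters on either strand, and ANLN holds them on both strands side by side.
SMC4: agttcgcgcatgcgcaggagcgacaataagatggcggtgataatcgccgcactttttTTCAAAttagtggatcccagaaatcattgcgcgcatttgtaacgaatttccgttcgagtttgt
ANLN: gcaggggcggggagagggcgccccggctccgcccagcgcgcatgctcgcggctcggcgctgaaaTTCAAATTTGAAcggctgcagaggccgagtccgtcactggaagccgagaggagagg
KIF23: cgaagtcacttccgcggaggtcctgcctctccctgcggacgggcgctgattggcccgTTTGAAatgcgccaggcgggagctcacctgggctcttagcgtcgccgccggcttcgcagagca
TTTGAA stood in 39 of 60 matched mitosis windows (65.0%), in 2 of the 41 replication windows (4.88%), and in 15.2% of all windows. The E2F letters stood in 5 of the 60 mitosis windows (8.33%). The ETS letters CCGGAAG, searched for the factor that the hairpin targets, stood in 91 of 394 matched windows of the genes that fell (23.1%), in 22.4% of those of all tested genes and in 10.3% of all windows. For the genes that rose 250 of 316 could be matched, under 80%, so their share is void; 37 held the ETS letters.

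At the entry to the cell cycle 3 of 7 tested cyclin and CDK genes fell, CDK2, CCNE1 and CCND1, and 1 of 10 inhibitors and pocket proteins rose. CDK2, the S phase kinase, was at 41.5 FPKM against 11.04 in A375 and 115 against 25.9 in Colo800 (change -1.96), with 60.7 and 148 after ETV1-sh1, above scrambled in both lines. Its partner cyclin E1 (CCNE1) was at 12.6 against 4.60 and 8.55 against 2.73 (-1.32). The inhibitor p27 (CDKN1B) rose from 27.6 to 52.8 and from 32.9 to 69.6 (0.98). Cyclin D3 (CCND3) was higher in both lines, at 35.5 against 86.6 and 78.0 against 127, but did not pass (adjusted p = 0.0575), nor did CCNE2, CDK4 and CDK6. Over the G1 list 3 of 17 tested genes fell and 1 rose (median -0.31), where 4.33% of all genes fell and 2.84% rose.

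Of 23 p53 targets 2 fell and none rose (median -0.05), where 4.33% of all genes fell and 2.84% rose. The growth arrest gene GADD45A was at 130.2 against 42.8 FPKM and 52.0 against 21.9 (change -1.40), and the death gene PMAIP1 at 38.5 against 10.3 and 21.2 against 7.72 (-1.58). CDKN1A, which encodes the p21 inhibitor, was at 987 against 750.4 in A375 and 126 against 227 in Colo800, below scrambled in one line and above it in the other (adjusted p = 0.648). Among 22 apoptosis regulators PMAIP1 and the inhibitor BIRC2 (-1.24) fell and none rose.

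**Figure D3:**
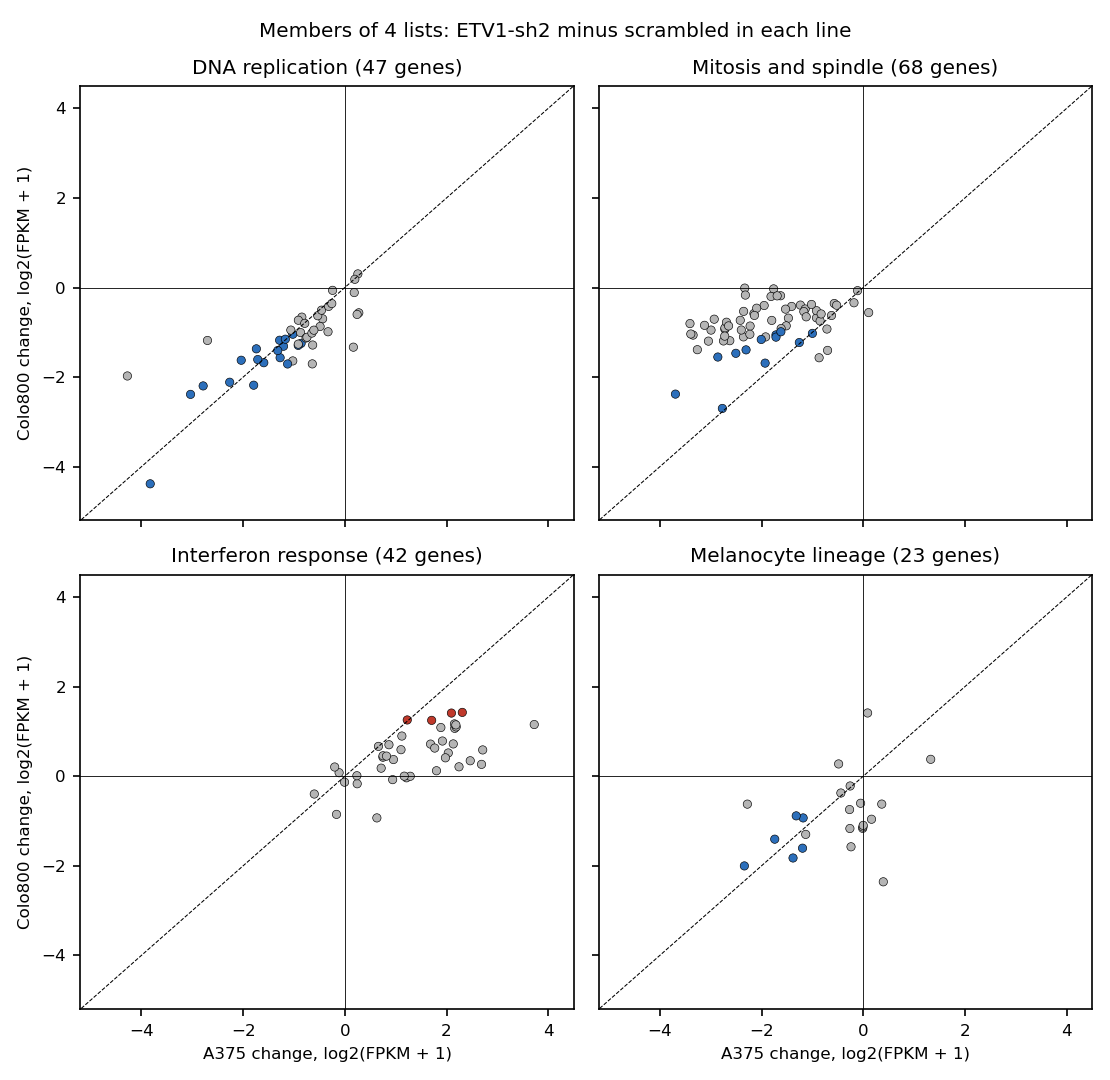
Change in A375 (x axis) and Colo800 (y axis), ETV1-sh2 minus scrambled on log2(FPKM + 1), for the tested members of 4 lists; blue fell, red rose, grey did not pass, and the dashed line marks equal change. Replication genes lie along the line, mitosis genes mostly above it with medians of -1.93 in A375 and -0.82 in Colo800, interferon genes mostly below it (1.26 and 0.45), and several melanocyte genes lie near 0 in A375 and below 0 in Colo800.

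Nucleolar factors build ribosomes and include known targets of MYC. Of 35 tested genes of the list of both 7 fell and none rose (median -0.64). Besides MYC these were NOP56 (213.5 against 88.7 FPKM and 349 against 176; change -1.12), NOP58 (-1.26), MRTO4 (-1.16), RRS1, WDR12 and NOP16, and 26 of the 27 nucleolar factors were lower in both lines. Of 70 cytosolic ribosomal protein genes 2 fell, RPL5 (-1.19) and RPS24 (-0.93), where 4.33% of all genes fell. The list median was -0.36, and 62 of the 70 were lower in both lines. At an unadjusted p under 0.05 in limma, 32 were lower and 1 was higher, where 1865 and 2018 of all 11142 genes were. RPL5 was at 252 against 111 and 394 against 171, and at 267 and 437 after ETV1-sh1.

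Interferon-stimulated genes were the list with the highest median, 0.99 over 42 tested genes (1.26 in A375 and 0.45 in Colo800). Of these 4 rose, where 2.84% of all genes rose, and none fell; 24 were higher at an unadjusted p under 0.05 and 32 were higher in both lines. Another 6 listed genes lay below the filter, and 6 of the 42 reached 1 FPKM on average in only one group, so that they had to differ to be tested. The antiviral genes that rose were IFIT3 (4.12 against 24.4 FPKM and 6.74 against 19.8; change 1.87), IFIT2 (1.36 against 4.52 and 1.55 against 5.09; 1.24) and SAMD9L (7.13 against 33.8 and 6.002 against 17.6; 1.75). IRF9, the DNA-binding subunit of the complex that interferon switches on, rose from 10.8 to 37.6 and from 16.3 to 40.0 (1.48), with 23.1 and 25.0 after ETV1-sh1.

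Genes that start the response did not pass, with 2 of the 5 sensors higher at an unadjusted p under 0.05 in limma. Over all genes, 2018 of 11142 were higher at that level. All 5 tested sensors had a positive fitted change (median 0.59, from 0.04 to 1.28), and 3 were higher in both lines. Sensors of double-stranded RNA stood at 3.21 against 7.07 and 2.74 against 2.55 FPKM for DDX58 (RIG-I), at 1.82 against 3.75 and 3.01 against 4.38 for IFIH1 (MDA5) and at 28.6 against 34.0 and 37.6 against 33.4 for EIF2AK2 (PKR). The ligand gene IFNB1 was listed at 0 in all 4 libraries, and CXCL10 and CCL5 stayed at or under 0.220. IFIT1 was at 0.601 against 20.2 in A375 and 1.03 against 3.52 in Colo800, and OAS2 at 2.997 against 25.2 and 0.372 against 1.06 (adjusted p = 0.0854 and 0.122); in such genes A375 moved further. Of 16 antigen presentation genes 1 rose, the immunoproteasome subunit PSMB9 (12.9 against 29.0 and 15.2 against 35.1; 1.13), with a list median of 0.05. Leukocyte markers that passed the filter were 3 of 7, none of which passed the test (median change 0.68, 0.73 in A375 and -0.04 in Colo800). The sum of all 7, tested or not, was 1370 against 931 FPKM in A375 and 161 against 133 in Colo800. HLA-DRA, an antigen presentation gene, made up most of it in A375 (1271 against 605) and was at 56.4 against 54.8 in Colo800. LYZ was at 12.2 against 21 and 0.168 against 1.02, and CD68 at 87.5 against 306 and 104 against 76.7. PTPRC was at or under 0.121 FPKM in all 4 libraries, and the part of these markers in the interferon values was not tested.

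The interferon-stimulated response element is printed in 3 windows of this list, in the same form, since most matched windows of the list held it. The genes are those with the smallest p that hold it, and SAMD9 and ISG15 did not pass (adjusted p = 0.0501 and 0.0504). Of the interferon genes that rose only IFIT3 is among the printed windows, while IRF9, SAMD9L and IFIT2 are not. IFIT3 lies at chr10:89327786-89327905 and ISG15 at chr1:1013329-1013448 on the plus strand, and SAMD9 at chr7:93118051-93118170 on the minus strand. Capitals mark TTTCNNTTTC on either strand; the matches in ISG15 overlap.
IFIT3: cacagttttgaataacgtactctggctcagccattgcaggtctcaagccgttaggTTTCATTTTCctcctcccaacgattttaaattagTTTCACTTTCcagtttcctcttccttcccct
SAMD9: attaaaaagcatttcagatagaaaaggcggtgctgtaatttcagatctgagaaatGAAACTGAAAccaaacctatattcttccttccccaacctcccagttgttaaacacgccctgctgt
ISG15: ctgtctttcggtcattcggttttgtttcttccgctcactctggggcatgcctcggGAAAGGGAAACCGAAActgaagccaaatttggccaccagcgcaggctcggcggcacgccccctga
The element stood in 24 of 32 matched interferon windows; 32 of 42 is under 80%, so no share is given. It stood in 3.57% of all windows, in 1 of the 41 replication windows and in 0 of the 60 mitosis windows. This element and the E2F letters TTTCCCGC both begin with TTTC.

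Melanocyte lineage genes fell in part: of 23 tested 6 fell and none rose, where 4.33% of all genes fell. The list median was -0.59, with -0.26 in A375 and -0.96 in Colo800. GPM6B, DCT, SLC24A5 and TYR were at 0.332, 0.0603, 0.0497 and 0.0271 FPKM in A375 scrambled, too low to fall much there. LEF1, a Wnt pathway transcription factor, was at 45.5 FPKM against 8.20 in A375 and 267 against 66.0 in Colo800 (change -2.17), with 42.5 and 125 after ETV1-sh1. The neural crest factor TFAP2A fell by 1.40 on the log2 scale and MYO5A, the motor that carries melanosomes, by 1.60. S100B was at 118 against 51.5 and 305 against 160, and S100A1 fell as well.

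MITF, the master regulator of the lineage, was at 12.5 against 10.5 in A375 and 116.5 against 38.4 in Colo800, and did not pass (adjusted p = 0.158). SOX10 was at 556 against 410 and 712 against 549 (adjusted p = 0.113). Of 21 tested genes of the dedifferentiated melanoma state, which lines with low MITF tend to express, only the nerve growth factor receptor NGFR passed, and it fell (15.4 against 2.77 and 204.5 against 71.7; -1.81). The median of this list was -0.44, with 7 genes lower and 4 higher at an unadjusted p under 0.05 in limma. WNT5A was at 18.2 against 9.53 FPKM and 57.0 against 32.6 (adjusted p = 0.0546), and AXL at 78.7 against 97.4 and 12.1 against 21.96 (0.125).

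Genes at the cell surface and in the matrix moved in both directions. Of 40 matrix and adhesion genes 5 fell and 2 rose (median -0.54), where 4.33% of all genes fell and 2.84% rose. The integrin genes ITGB8 (18.3 against 4.69 FPKM and 82.3 against 20.3; change -1.86), ITGB3 (104.5 against 20.4 and 375.1 against 145; -1.83) and ITGA4 (-1.03) fell, and ITGA2 rose (17.3 against 33.3 and 12.8 against 29.4; 1.02). The laminin chain LAMA4 and the cross-linking enzyme LOXL4 fell. COL1A1, a chain of type I collagen, rose from 1.97 to 9.61 and from 2.44 to 12.1 (1.88). Fibroblast markers tested were 7 of 9, of which COL1A1 alone passed; 5 of the 7 were higher in both lines and 3 at an unadjusted p under 0.05, with a median change of 0.92. LUM was at 7.58 against 13.96 FPKM in A375 and 3.45 against 8.17 in Colo800 (adjusted p = 0.0604), PDGFRB at 3.11 against 6.99 and 1.96 against 7.65 (0.0570), and DCN at 0.423 against 4.08 and 0.113 against 0.442 (0.157). DCN reached the limit for testing only through the ETV1-sh2 libraries, so it had to differ to be tested. The sum of all 9 markers, tested or not, was 15.8 against 38 in A375 and 61.6 against 80.6 in Colo800. COL3A1 stayed at or under 0.0842, and the part of these markers in the COL1A1 result was not tested.

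In extracellular proteolysis 5 of 22 fell and 2 rose (median -0.63), where 4.33% of all genes fell and 2.84% rose. The plasminogen arm held 3 of the 5: PLAT, ANXA2 and S100A10, the annexin partner, at 1217 against 665 and 707 against 387 (change -0.87), with 2050 and 1021 after ETV1-sh1. The metalloproteinases MMP16 (-1.55) and MMP8 (-1.35) fell. FURIN, a proprotein convertase, rose from 30.4 to 106.5 and from 37.6 to 173 (1.98). TIMP3, a metalloproteinase inhibitor, was at 424 against 21.3 and 844 against 219 but narrowly did not pass (-3.10, adjusted p = 0.0539).

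SPINT1, MUC1 and MAP7 belong to a list of genes typical of epithelia, of which 16 of 36 passed the filter on low values. Of these 5 rose and none fell (median 0.41), where 2.84% of all genes rose. The others that rose were the desmosome genes DSP (3.93 against 12.9 FPKM and 17.2 against 46.1, change 1.44) and JUP (9.09 against 24.9 and 3.32 against 19.9, change 1.82). The genes that define an epithelium were at or near 0 in all 4 libraries: CDH1 (E-cadherin) reached at most 0.0357, KRT18 at most 0.0463 and KRT19 at most 0.106. EPCAM reached 1.62 in Colo800 ETV1-sh2 and was at or under 0.135 in the other 3. Keratinocyte markers tested were 2 of 8 and neither passed. The sum of all 8, tested or not, was 21.7 against 13.6 in A375 and 5.74 against 8.66 in Colo800.

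Enzymes of glycolysis and of serine synthesis were among the genes that fell. Of 27 glycolysis and hypoxia genes 5 fell and none rose (median -0.43), where 4.33% of all genes fell. PFKFB4, which sets the level of a glycolysis activator, was at 132.6 FPKM against 17.5 in A375 and 118.5 against 28.5 in Colo800 (change -2.44), with 149.6 and 140.3 after ETV1-sh1. Lactate dehydrogenase LDHA was at 439 against 152 and 1310 against 486 (-1.48), and ENO1, PFKFB3 and HK2 fell too. Of 14 serine and folate genes TYMS, PSAT1 and PHGDH fell (median -0.43). PSAT1 of the serine pathway was at 30.1 against 5.79 and 43.4 against 8.04 (-2.24), with 6.36 and 12.0 after ETV1-sh1.

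COX5A alone passed among 30 nuclear-encoded respiratory chain genes, and the list median was 0.12. None of the 13 mitochondrially encoded genes passed (median 0.42, 0.11 in A375 and 0.70 in Colo800). At an unadjusted p under 0.05 in limma 3 were higher, where 2018 of all 11142 genes were. MT-ND4, a complex I subunit, was at 2799 against 3467 FPKM in A375 and 3843 against 7295 in Colo800.

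In each of the stress lists 1 gene passed, where 4.33% of all genes fell and 2.84% rose. At an unadjusted p under 0.05 in limma, 1865 of all 11142 genes were lower and 2018 higher. Of 23 integrated stress response genes 1 rose, the kinase EIF2AK3 (PERK; 11.7 against 31.3 FPKM and 50.5 against 112; change 1.24), with a list median of -0.08, and of 22 unfolded protein response genes 1 fell, the chaperone HSP90B1 (-0.93), with 10 lower and 1 higher at an unadjusted p under 0.05 and a list median of -0.39. Of 20 NF-kB and inflammatory genes ICAM1 fell (-1.19). Of 22 lysosome and autophagy genes ULK1, the kinase that starts autophagy, rose (7.23 against 25.7 and 4.60 against 15.4; 1.62), and of 10 histone genes of the replication-dependent set HIST1H2BD rose (34.0 against 111 and 12.4 against 71.5; 2.06). None of 20 cholesterol synthesis genes passed (median 0.13; 2 lower and 3 higher at an unadjusted p under 0.05), and none of 8 genes of the small RNA silencing machinery (median -0.20; 1 and 1). Genes often used for scaling were not level: of 18 housekeeping genes TUBB (-1.66), YWHAZ (-1.58), TFRC, LMNB1 (-2.14) and TUBA1B fell, with a list median of -0.37.

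**Figure D4:**
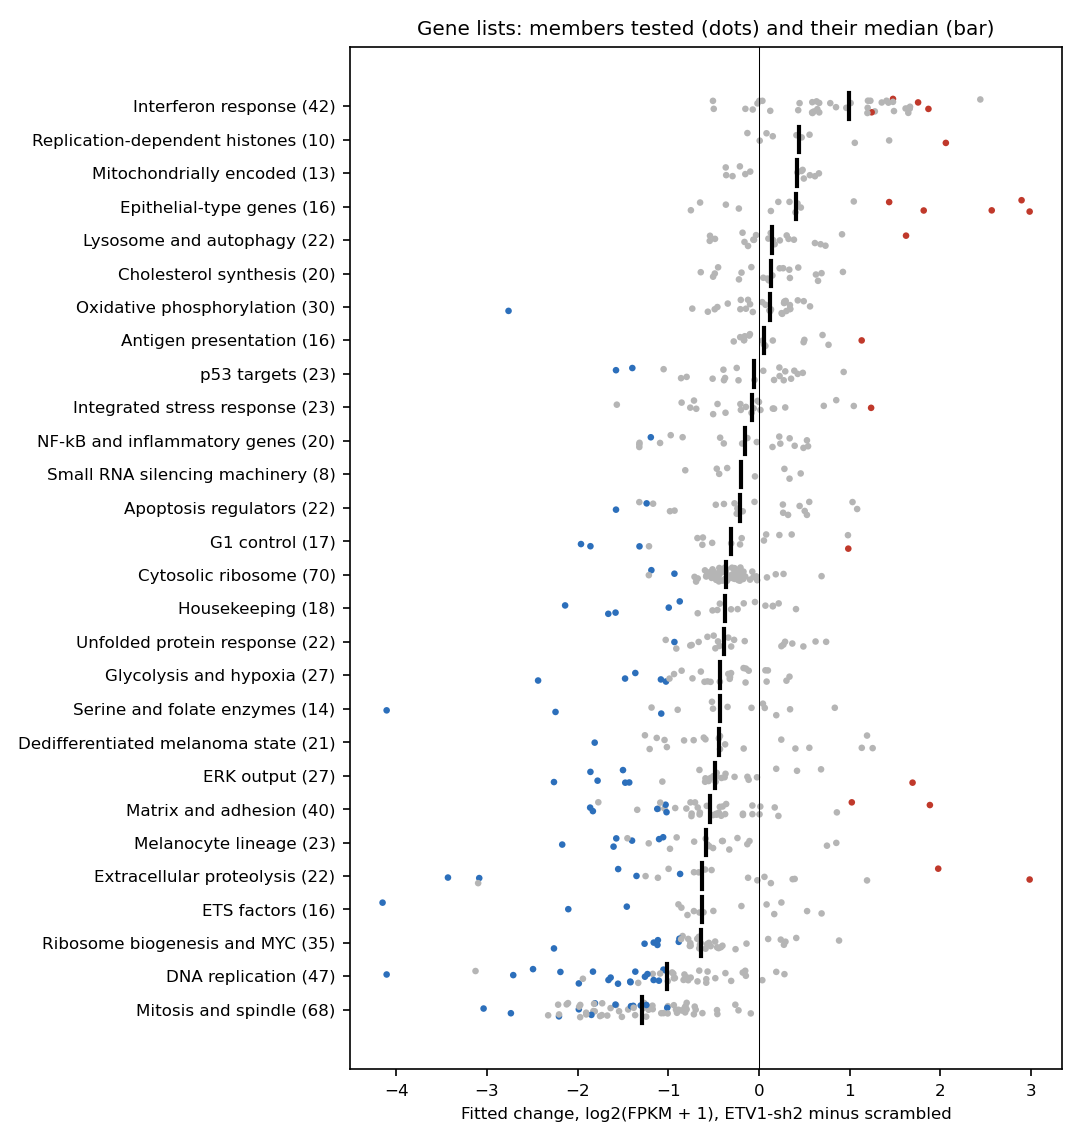
Fitted change, ETV1-sh2 minus scrambled on log2(FPKM + 1), of the tested members of 28 gene lists (dots; number of members in brackets; blue fell, red rose, grey did not pass) and their median (bar), ordered by median. The mitosis (-1.29) and DNA replication (-1.01) lists lie lowest and the interferon list (0.99) highest, while the median of all genes tested is 0.05.

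A small set of genes went opposite ways in the lines: 11 of the genes tested (0.0987%) were at least 2-fold higher in one line and at least 2-fold lower in the other, and 7 of them had a mean of at least 5 FPKM. CEP97, a centriole cap protein, stood at 8.84 FPKM (scrambled) against 117 (ETV1-sh2) in A375 and 159 against 12.8 in Colo800. With ETV1-sh1 it was at 89.6 and 271, above scrambled in both lines. FGF1, a growth factor, was at 17.4 against 2.11 in A375 and 4.53 against 13.8 in Colo800, and IL32, a cytokine-like protein, at 13.5 against 2.64 and 1.08 against 7.84. With 4 libraries there is no residual for a test of this difference between lines.

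**Figure D5:**
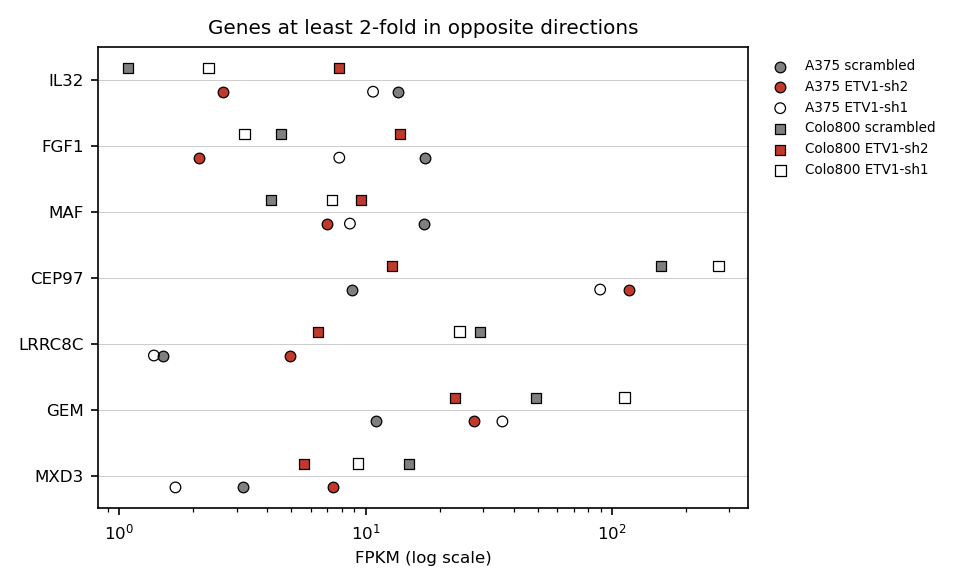
Level in FPKM (log scale) of the 7 genes at least 2-fold in opposite directions with a mean of at least 5 FPKM, in each library of A375 (circles) and Colo800 (squares): grey scrambled, red ETV1-sh2, white ETV1-sh1. For CEP97 red lies right of grey in A375 (117 against 8.84) and left of it in Colo800 (12.8 against 159).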

How the data were processed

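Expression was measured by RNA sequencing. The authors deposited 1 table of FPKM per gene, made with STAR 2.4, Cufflinks 2.2.1 and Cuffnorm on hg19, per the submitters' processing notes; the sources used here do not give annotation, scaling method, strandedness or filters, so overlapping, antisense and near-identical genes cannot be told apart with certainty. No coordinates come from that table. The reference gene names held 17037 of its identifiers, 16157 with the same symbol.

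The 2 ETV1-sh2 and 2 scrambled libraries were fitted with limma 3.58.1 in R 4.3.3 (lmFit and eBayes, trend on) on log2(FPKM + 1), over genes with a mean of at least 1 FPKM, with Benjamini-Hochberg adjustment over all of them and a threshold of 0.05. The cell line was the block: libraries pair because they come from the same line. The fit has 1 residual and 3.3 prior degrees of freedom. It was run on simulated data with independent noise and equal changes set in both lines. That run does not show how the fit behaves where lines respond differently or depth is unequal. No label states that the libraries of a line were separate cultures. Relative depth came from the commonest ratio between values from 0.0001 to 0.3 FPKM.

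The members and the 33 gene lists (840 of 860 entries found, 750 tested) were chosen with earlier results of these data known, so the lists are described by counts and medians without set tests. Genes were named by rule: ETV1, 15 per direction by size of change, 4 per direction and 4 per list by smallest p, members that open a pathway, and up to 6 per direction that moved apart in the lines. ETS1, ELK1, GABPA, SKA3 beside mitosis, and list members named beyond 4 were chosen after their values were seen, and some genes that the rule names are not reported here. Promoters were matched by symbol or synonym to RefSeq windows on GRCh38.p14 (9269 of 11142 genes).

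Alternatives were other pseudocounts, filters, scalings and fits, and leaving out each library.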

Additional observations from a re-analysis of the deposited data

Results flagged for a closer look

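In 7 genes with a mean of at least 5 FPKM the change after ETV1-sh2 was at least 2-fold up in one line and at least 2-fold down in the other. With 4 libraries this difference between lines was not tested. The value given is the log2(FPKM + 1) change in Colo800 minus that in A375. It was 4.08 for IL32, 3.98 for FGF1 and 2.24 for MAF, a transcription factor (17.2 against 6.95 FPKM in A375 and 4.13 against 9.62 in Colo800), which were lower in A375 and higher in Colo800. It was -7.12 for CEP97, -3.28 for LRRC8C, a subunit of volume-regulated anion channels (1.5 against 4.96 and 29.2 against 6.395), -2.31 for GEM, a small GTPase (10.98 against 27.6 and 49.1 against 23.0), and -2.28 for MXD3, a MYC antagonist (3.17 against 7.35 and 15 against 5.602), which were higher in A375 and lower in Colo800.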

How the results depend on the processing

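All 798 genes that passed kept their direction under each alternative in which they were tested. This was largely set in advance. The filter, the variance trend and the block leave the fitted change of a gene as it is. These genes also moved the same way in both lines, so leaving out a library could hardly reverse them. The number that passed (482 lower, 316 higher) depended on the fit. It was 0 and 0 with no filter on low values, with no variance trend and with no replicate block, where ETV1 stayed at -4.15 with an adjusted p of 0.125, 0.0604 and 0.953, and where 1747 and 2103, 1760 and 2012, and 295 and 249 genes had an unadjusted p under 0.05 in limma (1865 and 2018 as reported). Higher genes numbered 493 with a minimum mean of 5 FPKM and 499 after quantile normalization; with all 6 libraries 997 fell and 862 rose. Leaving out 1 library in that fit, where the lone library is assumed to vary like the others, gave 62 to 1078 lower and 19 to 969 higher genes, lowest without A375 scrambled and highest without Colo800 ETV1-sh2 (209 and 87 without Colo800 scrambled, 708 and 503 without A375 ETV1-sh2). On a ratio of FPKM + 0.1, 485 genes were at least 2-fold higher in both lines. Without Colo800 ETV1-sh2, IL32 was at -1.75, LRRC8C at 1.20 and MXD3 at 1.001; without A375 ETV1-sh2, FGF1 was at 1.25, CEP97 at -2.93 and GEM at -0.95, as their opposite changes imply. The cause of the other differences was not tested. Smaller pseudocounts, median centring and quantile normalization kept 791, 795, 798 and 766 of the 798 genes past the threshold. No tested endothelial marker was left at a minimum mean of 5 FPKM, so that list then has no median. Depth is known only in relative terms.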
